A study of Homo sapiens with 6 samples.

Results

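The regions described here are the DNA break regions called on chromosome 1 in MDA-MB-231, a triple-negative breast cancer line of human origin, after inhibition of ATR together with a low dose of aphidicolin (ATRi+APH). They were taken from the authors' list for that condition as every chromosome 1 region whose summit lay at least 100 kb from both chromosome ends and more than 2 Mb from the centromere bands, in hg19. Of the 1133 regions in the list, 246 were on chromosome 1, and 236 met these limits. The other 10 chromosome 1 regions comprised 7 next to a chromosome end and 3 next to the centromere.

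Cells were treated for 9 h with DMSO or with 0.5 µM VE-822, an ATR inhibitor, plus 0.2 µM aphidicolin, an inhibitor of the replicative DNA polymerases. Break ends were mapped by BrITL: permeabilised cells are given a biotin-bearing chain terminator that is added to free 3′ ends, and the labelled fragments are recovered with streptavidin and sequenced. There were 6 samples, 2 pull-downs and 1 input for each treatment, and both conditions share the cell line and the labelling procedure. The labels do not say whether the libraries came from separate cultures. The deposited list of each condition pools its libraries, so no value below has a spread between replicates and no difference between conditions was tested. Break lists carry no expression, so the identity of the line could not be checked against marker genes.

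ATR is the checkpoint kinase that is activated by single-stranded DNA at stalled replication forks, where it restrains further origin firing and keeps forks from collapsing. Aphidicolin slows the polymerases, and low doses are the classical means of inducing breaks at common fragile sites, which are often large, late-replicating genes. Cytogenetic bands give a coarse map of such features: pale bands tend to be gene-rich and early-replicating, and dark bands gene-poor and late-replicating. Chromosome 1 is the longest human chromosome. Its long arm (1q) starts with a block of heterochromatin, band 1q12, followed by the duplicated, gene-family-rich bands of 1q21.

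The short arm (1p) held 154 of the 236 ATRi+APH regions and 1q held 82. The 1p share was 65.3% (exact 95% Clopper-Pearson interval 58.8 to 71.3), while 1p made up 52.8% of the length within the limits when 1q12 is left out. The density was 1.29 regions per Mb on 1p (exact Poisson interval 1.09 to 1.51) and 0.770 on 1q (0.612 to 0.955). With regions of fold 4 or more alone, the 1p share was 46.4%, below the share of length. These intervals, like all those given for shares, counts and medians, cover counting error only. They treat regions as independent although many lie close together, so they are too narrow.

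The excess of 1p lay in its centromeric part. Bands 1p31.1 to 1p12, 49.8 Mb long, held 141 regions, or 2.83 per Mb (2.38 to 3.34). Bands 1p36.33 to 1p31.2, 69.6 Mb long, held 13, or 0.187 per Mb (0.0995 to 0.319), below the density of 1q. The centromeric part thus held 59.7% of all chromosome 1 regions (53.2 to 66.1) on 22% of the length. The limits of these sections, and of those of 1q below, were not preset. The intervals of sections do not allow for that choice. On 1q, too, the section nearer the centromere was the denser: 1q21.1 to 1q23.3 held 42 regions at 1.83 per Mb (1.32 to 2.48). The outer section, 1q24.1 to 1q44, held 40 at 0.478 per Mb (0.342 to 0.651). Most of the 42 lay in 1q21.1 with 10, 1q21.2 with 15 and 1q23.3 with 13. The bands between these, 1q21.3, 1q22, 1q23.1 and 1q23.2, held 1 region each. The inner section was thus not evenly filled, and its regions did not rise steadily towards the centromere. The median distance of a summit from the centromere bands was 25.9 Mb on 1p and 34.1 Mb on 1q. The 1q distance includes 1q12, where no region was listed, so these medians are not directly comparable.

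**Figure D1:**
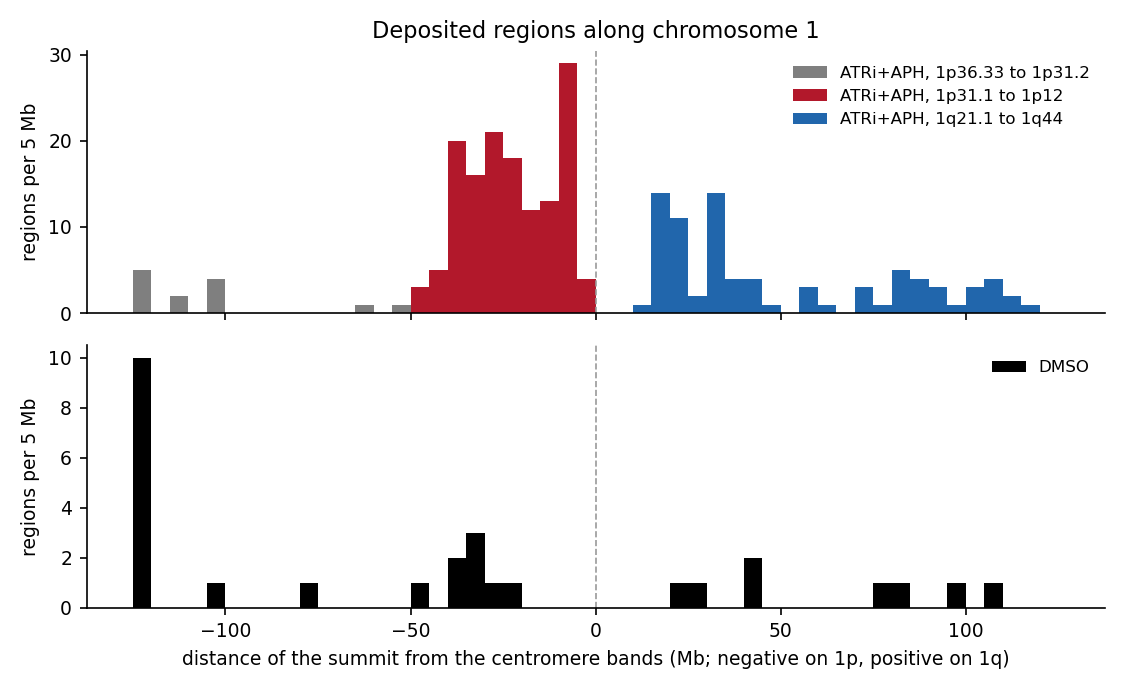
Number of deposited regions per 5 Mb (y axis) against the distance of the summit from the centromere bands of chromosome 1 in Mb (x axis, negative on 1p and positive on 1q), for ATRi+APH above and DMSO below. The 141 ATRi+APH regions of 1p31.1 to 1p12 lie within 47.1 Mb of the centromere bands, and 10 of the 28 DMSO regions lie together at the tip of 1p.

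Of the 59 bands within the limits, 37 held at least 1 region, and 16 bands with 5 or more held 195 of the 236. Band 1p13.2 held the most, 26 regions or 6.05 per Mb (3.95 to 8.86). It was followed by 1p31.1 with 21 (1.38 per Mb), 1p22.2 with 20 (5.56 per Mb) and 1p21.2 with 19. Band 1p21.2 was the densest of all at 7.60 regions per Mb (4.58 to 11.9), although its interval overlaps those of 1p13.2 and 1p22.2. On 1q the leading bands were 1q21.2 with 15 regions (4.55 per Mb, 2.54 to 7.5) and 1q23.3 with 13 (2.60 per Mb, 1.38 to 4.45). The remaining bands with at least 5 were 1p22.3 with 12, 1p13.3 with 11, 1p22.1 and 1q21.1 with 10 each, 1p21.3 with 9, 1q41 with 8, 1p21.1 with 6, and 1p36.33, 1p13.1 and 1q24.2 with 5 each.

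Stain classes were not represented alike along the chromosome. Over all of 1p the darkest bands (stain class gpos100) held 17.5% of the regions (11.9 to 24.5) on 16.9% of the length. In 1p31.1 to 1p12 the darkest bands, 1p31.1 and 1p21.1, made up 40.6% of the length and held 19.1% of the regions (13.0 to 26.6). The pale bands of that stretch made up 30.1% of the length and held 40.4% of the regions (32.3 to 49.0). On 1q, pale bands held 51.2% of the regions on 51.7% of the length, and the darkest bands held 13.4% on 18.3%, so neither share departed from length beyond its interval. The densest band, 1p21.2, is pale, while the next 2 in density, 1p13.2 and 1p22.2, belong to intermediate dark classes.

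No region was listed in 16 of the 32 bands of 1p and in 6 of the 27 bands of 1q. Among the empty bands, 13 were at least 3 Mb long: 1p36.32, 1p36.22, 1p36.21, 1p36.12, 1p36.11, 1p34.3, 1p34.2, 1p33 and 1p32.3 on 1p, and 1q25.2, 1q31.2, 1q31.3 and 1q42.13 on 1q. In 1p34.3, which is 5.50 Mb long, a count of 0 allows a density of up to 0.671 per Mb. The longest stretch without a region ran for 40.3 Mb between summits at 16967251 in 1p36.13 and 57260412 in 1p32.2. The longest on 1q, from 174104086 in 1q25.1 to 184979189 in 1q25.3, measured 10.9 Mb.

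The regions with the highest fold enrichment were modest in absolute reads. Fold enrichment is the authors' ratio of pull-down pileup to local background at the summit, and the reads behind it were recovered from the deposited statistics. On 1p the highest fold, 6.81, belonged to a 655 bp region of 1p21.2 (chr1:101719641-101720295) with 48 reads at the summit (exact Poisson interval 35.4 to 63.6). A pair of neighbours in 1p22.3 came next: chr1:87261753-87262951 had a fold of 6.51 and 55 reads, and chr1:87263748-87265341 had a fold of 5.94 and 52 reads. Between them in rank stood chr1:106505044-106505592 in 1p21.1 with a fold of 6.06 and 40 reads, and the fifth was chr1:91633350-91633767 in 1p22.2 with a fold of 5.62 and 53 reads. The read intervals of these 5 regions overlap one another, so their order is not resolved at this depth.

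The 4 highest folds of 1q all lay in 1q21.1 to 1q23.3, in regions of 88 to 118 bp. Band 1q23.3 held the first, chr1:161423879-161423966 (88 bp) with a fold of 6.21 and 53 reads (39.7 to 69.3), and the next, chr1:161529145-161529235 (91 bp) with 5.98 and 45 reads. A 118 bp region of 1q21.1 (chr1:144681567-144681684) reached a fold of 5.62 with 37 reads. In 1q21.2, chr1:148900829-148900918 (90 bp) reached 5.28 with 41 reads. The fifth place was shared by 4 regions with a fold of 4.93 and 33 reads. These were chr1:148790585-148790676 (92 bp) and chr1:149709258-149709583 (326 bp) in 1q21.2, chr1:212290508-212291071 (564 bp) in 1q32.3 and chr1:230853270-230853525 (256 bp) in 1q42.2. The 5 highest of 1p were 418 to 1594 bp wide.

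The rows next to the limits were as follows. At the tip of 1p, the region left out (chr1:10034-10577) had a fold of 5.96 and 114 reads, and the first one kept (chr1:564946-565068) had 5.49 and 37 reads. The 6 regions left out at the tip of 1q had summits 10.1 to 12.3 kb from the chromosome end, folds of 3.32 to 11.7 and 33 to 92 reads. Next to the centromere, 3 regions of 1p12 with folds of 3.30 to 4.13 were left out, the nearest 0.996 Mb from the centromere bands, and the nearest one kept (chr1:118209552-118209675, fold 3.64) lay 3.29 Mb away. The first region kept on 1q, chr1:143743401-143743481, lay 14.8 Mb from them, beyond 1q12. No region was listed in 1q12, and whether reads can be placed there was not checked.

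Widths did not separate the arms. The median width was 194 bp on 1p (95% interval of the median from order statistics 169 to 218) and 164 bp on 1q (124 to 223), and both intervals overlap widely. Every width lay between 78 bp, the shortest in the list, and 1594 bp. Regions of at least 500 bp numbered 17 of 154 on 1p (11%, 6.56 to 17.1) and 5 of 82 on 1q (6.10%, 2.01 to 13.7), beside 14.8% of all autosomal ATRi+APH regions under the same limits. On chromosomes 2 to 22 the share was 16.4% (13.9 to 19.1) and the median width was 215 bp (201 to 235).

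Of the 22 regions under 100 bp on 1q, 16 lay in its inner bands. In 1q21.1 to 1q23.3 the median width was 121 bp (97.0 to 172), none of the 42 regions reached 500 bp and 38.1% were under 100 bp. In 1q24.1 to 1q44 the median was 236 bp (136 to 330), 5 of 40 regions reached 500 bp and 15% were under 100 bp. The interval of 1q21.1 to 1q23.3 lies below that of chromosomes 2 to 22, and it overlaps that of the outer 1q.

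The widest regions of 1p came from 1p22.3: the pair named above, 1594 and 1199 bp wide with summits 2.16 kb apart, and chr1:85453515-85454674, which was 1160 bp wide with a fold of 4.13. After these came chr1:6801581-6802439 in 1p36.31 (859 bp, fold 4.61) and chr1:95619364-95620156 in 1p21.3 (793 bp, fold 3.30). On 1q the widest was chr1:232502921-232503601 in 1q42.2 at 681 bp, with a fold of 3.03 and a local background 2.41 times that of the genome. The next 4 measured 639 bp in 1q43 (chr1:237204241-237204879), 564 bp in 1q32.3 (chr1:212290508-212291071), and 560 and 508 bp in 1q41 (chr1:216951802-216952361 and chr1:221840828-221841335). All 5 of these were alone, with no other ATRi+APH region within 100 kb.

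Summits lay near the middle of their regions on both arms. The median summit was 47.3% of the width from the lower coordinate on 1p (41.5 to 51.2) and 46.7% on 1q (37.7 to 50.4). It fell between 25% and 75% of the width in 71.4% of 1p regions and 70.7% of 1q regions, and in 73.2% of regions on the other autosomes. The summit was in the first 50% of the width in 83 of 154 regions on 1p (53.9%, 45.7 to 61.9) and in 49 of 82 on 1q (59.8%, 48.3 to 70.4).

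Spacing differed between the arms more than width did. The median distance from a summit to the nearest other summit of its arm was 29.6 kb on 1p (19.2 to 52.8) and 208 kb on 1q (55.3 to 446), and it was 183 kb on chromosomes 2 to 22 (138 to 239). Within 1q the distance was 20.4 kb in 1q21.1 to 1q23.3 (6.92 to 55.3) and 474 kb in 1q24.1 to 1q44 (346 to 1093). The inner 1q was therefore spaced like 1p31.1 to 1p12, where the median was 40.1 kb (20.3 to 56.5). Among the 12 regions of 1p and 36 of 1q whose local background equalled that of the genome, the order turned. The ratio of the 1q median to the 1p median was 0.395 there, against 7.03 for all regions. That ratio rests on few regions and was not separated from their density. Neighbours under 2 kb apart made up 27.3% of 1p regions, 12.2% of 1q regions and 19.7% on the other autosomes.

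**Figure D2:**
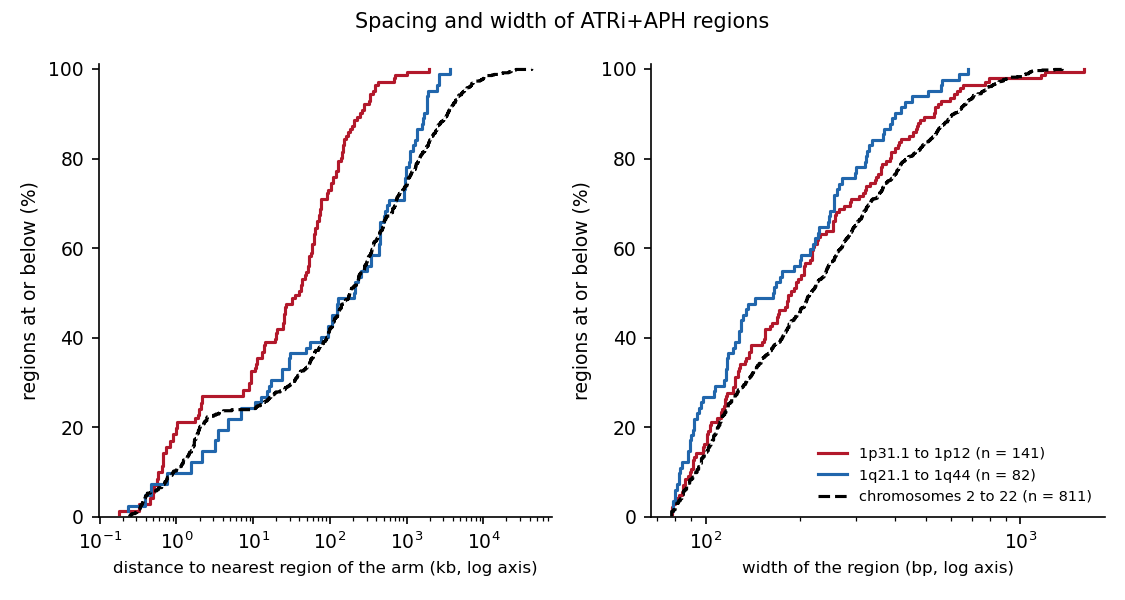
Cumulative share of ATRi+APH regions (y axis, %) against the distance to the nearest region of the same arm (left, kb, log axis) and against region width (right, bp, log axis), for 1p31.1 to 1p12, 1q21.1 to 1q44 and chromosomes 2 to 22. The spacing curve of 1p31.1 to 1p12 (median 40.1 kb) runs left of those of 1q (208 kb) and of the other autosomes (183 kb). The width curves differ less, with medians of 187 bp in 1p31.1 to 1p12, 164 bp on 1q and 215 bp on the other autosomes. Regions of at least 500 bp made up 6.10% on 1q and 16.4% on the other autosomes.

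Regions were joined into runs when successive summits on an arm lay at most 100 kb apart. Runs of 3 or more held 92 of the 236 regions (39.0%, 32.7 to 45.5), beside 21.9% of all autosomal regions under the same limits and 16.9% on chromosomes 2 to 22 (14.4 to 19.7). On 1p there were 16 such runs with 73 regions (47.4%, 39.3 to 55.6), and on 1q there were 4 with 19 (23.2%, 14.6 to 33.8). All 4 runs of 1q lay in 1q21.1 to 1q23.3, where they held 45.2% of the regions (29.8 to 61.3). At a fold of 4 or more, runs held 12.8% of the chromosome 1 regions. In 1q24.1 to 1q44 no region was in a run and 34 of 40 (85.0%) had no other within 100 kb. Regions in runs were not wider than solitary ones beyond the intervals, with medians of 177 bp (151 to 215) and 194 bp (131 to 232). A fixed join of 100 kb puts more regions in runs where density is higher. The length per region was 775 kb on 1p, 1299 kb on 1q, 957 kb on chromosome 1 and 2892 kb on chromosomes 2 to 22. Run shares and nearest distances were not separated from density.

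The largest run, in 1p13.2 (chr1:114921015-115322867), had 11 regions over 401 kb, 91 to 774 bp wide with folds of 3.57 to 4.44 and 27 to 45 reads. A run in 1p22.2 (chr1:91497919-91659029) packed 8 regions into 161 kb with folds of 3.62 to 5.62. In 1p21.2, chr1:101573773-101720295 held 7 regions in 146 kb, with folds of 3.47 to 6.81, and ended in the region with the highest fold of the chromosome arm. The run in 1q23.3 (chr1:161423879-161584535) also had 7 regions, in 161 kb, and these were all narrow, 78 to 172 bp with a median of 88.0 bp. Its local background was close to that of the genome (median ratio 1.05), unlike the 3 runs of 1p, whose medians were 1.38 to 1.53.

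Runs of 5 were found in 1p36.33 (chr1:564946-595503, 30.4 kb), 1p22.2 (chr1:90780173-90845882, 65.6 kb), 1p13.2 (chr1:115548006-115745599, 197 kb) and 1q21.2 (chr1:149709258-149790171, 80.7 kb). The other runs of 1q were 4 regions in 1q21.1 (chr1:144986682-145082524) and 3 in 1q21.2 (chr1:148900829-148932895). The run in 1q21.1 stood apart by its local background, a median of 3.25 times that of the genome, with 45 to 56 reads and low folds of 2.77 to 3.27. That in 1q21.2 had regions of 89 to 164 bp and folds of 3.87 to 5.28.

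**Figure D3:**
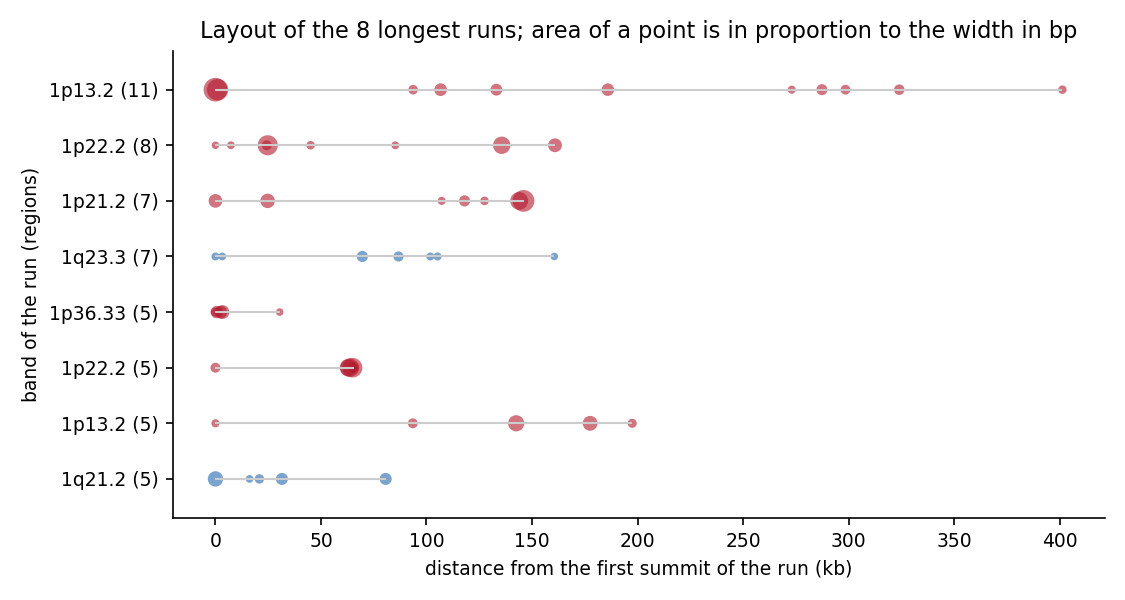
Layout of the 8 runs with 5 or more ATRi+APH regions: each point is a region at its distance in kb from the first summit of its run (x axis), on a line for its run labelled with the band and the number of regions (y axis), with area in proportion to width. The 1p13.2 run of 11 extends over 401 kb, and the 7 regions of the 1q23.3 run (blue) are small because none exceeds 172 bp.

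DMSO cells gave 28 regions on chromosome 1 under the same limits, 20 on 1p and 8 on 1q. The 1p share, 71.4% (51.3 to 86.8), is not distinguishable from that of the ATRi+APH list. Of the 20 on 1p, 10 lay side by side in 1p36.33 between 564523 and 570237, and 8 of the other 10 lay in 1p31.1 to 1p12. In that stretch the DMSO density was 0.161 per Mb (0.0694 to 0.317), against 2.83 per Mb in the ATRi+APH list. The DMSO regions outside 1p36.33 had 15 to 46 reads and folds of 5.03 to 7.57. In 1p36.33 the folds ran from 2.71 to 28.0 and the reads from 34 to 129.

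The lists differed in depth and in the weakest region they hold. How the deposited regions were selected is not given in the sources used here. Averaged over the genome, pull-down pileup was 5.13 reads for ATRi+APH against 1.64 for DMSO, and the weakest deposited region had a −log10 p of 6.41 and 10.5, respectively. With both lists held to the DMSO value of 10.5, 10 ATRi+APH regions were left on 1p and 4 on 1q, against 20 and 8 in DMSO cells, or 10 and 8 when 1p36.33 is set aside. The longer ATRi+APH list on chromosome 1 therefore consisted mostly of regions with a lower −log10 p than any deposited DMSO region. Depth differed, so these values are not on 1 scale, and whether treatment raised break density here was not tested.

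Positions were seldom shared, at about the same share as over all autosomes. Only 28 DMSO regions were there to be overlapped on chromosome 1 under the same limits. An ATRi+APH region overlapped a DMSO region by at least 1 bp in 5 of 236 cases (2.12%, 0.691 to 4.87), beside 1.91% of all autosomal ATRi+APH regions under the same limits. On 1p these were 4 of 154, all in 1p36.33: chr1:564946-565068, chr1:565677-565891, chr1:567528-567753 and chr1:568144-568406, with folds of 3.60 to 5.49 and 30 to 37 reads. This stretch is known to carry a nuclear copy of mitochondrial DNA. On 1q the overlap was 1 of 82, chr1:236260421-236260665 in 1q42.3. That region had 92 reads, the most of all 236, but the lowest fold, 2.53, over a local background 6.88 times that of the genome. Its DMSO counterpart, chr1:236260415-236260698, had 46 reads and a background ratio of 4.08.

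DMSO regions were sparse, with 8069.7 kb of length per region on chromosome 1, and distances to them were not separated from that. The median distance from an ATRi+APH summit to the nearest DMSO summit was 3.49 Mb on 1p and 3.63 Mb on 1q. Of the 236 regions, 10 had a DMSO summit within 100 kb. Of the 141 regions in 1p31.1 to 1p12 none lay within 5 kb of a DMSO summit and 2 lay within 100 kb. The closest approach there was 40.5 kb, from the DMSO region chr1:87692027-87692454 in 1p22.3. No shares of other chromosomes are given beside these counts, so they are not set apart from the rest of the list.

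The names of the deposited regions carry numbers that extend this comparison. In both lists the numbers rise strictly in genome order, up to 10154 for ATRi+APH and 11612 for DMSO, so the deposited rows are 11.2% and 3.28% of the highest number. The region names point to a reproducibility (IDR) step, but the rule by which rows were kept is not known, and it may differ between the lists. Read as a running count of regions in a longer call, the numbers give how many regions had been called between deposited ones, though not where. On chromosome 1 the count reached 1709 to 1711 in the ATRi+APH call and 1335 to 1445 in the DMSO call. That is 16.8% of the highest number for ATRi+APH and 11.5% to 12.4% for DMSO.

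Both longer calls were densest on centromeric 1p. Between the DMSO summits at 75116227 (1p31.1) and 96880749 (1p21.3), the DMSO call held 281 regions, or 12.9 per Mb, and the ATRi+APH call held 357 to 409, or 16.4 to 18.8 per Mb. From there to the DMSO summit at 121355212, in 1p11.2 next to the centromere, the densities were 11.4 per Mb for DMSO and 17.6 to 18.5 for ATRi+APH. Between 570177 (1p36.33) and 44172872 (1p34.1) they were 3.05 per Mb for DMSO and 0.252 to 1.12 for ATRi+APH. On 1q from 150602242 (1q21.3) to 205719440 (1q32.1) they were 5.53 per Mb for DMSO and 5.93 to 6.91 for ATRi+APH. The DMSO call, too, had more regions per Mb in the 2 centromeric stretches of 1p than in the other stretches compared, although 8 deposited DMSO regions lay in 1p31.1 to 1p12. The 40.3 Mb stretch without a deposited ATRi+APH region contained 38 called ones.

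**Figure D4:**
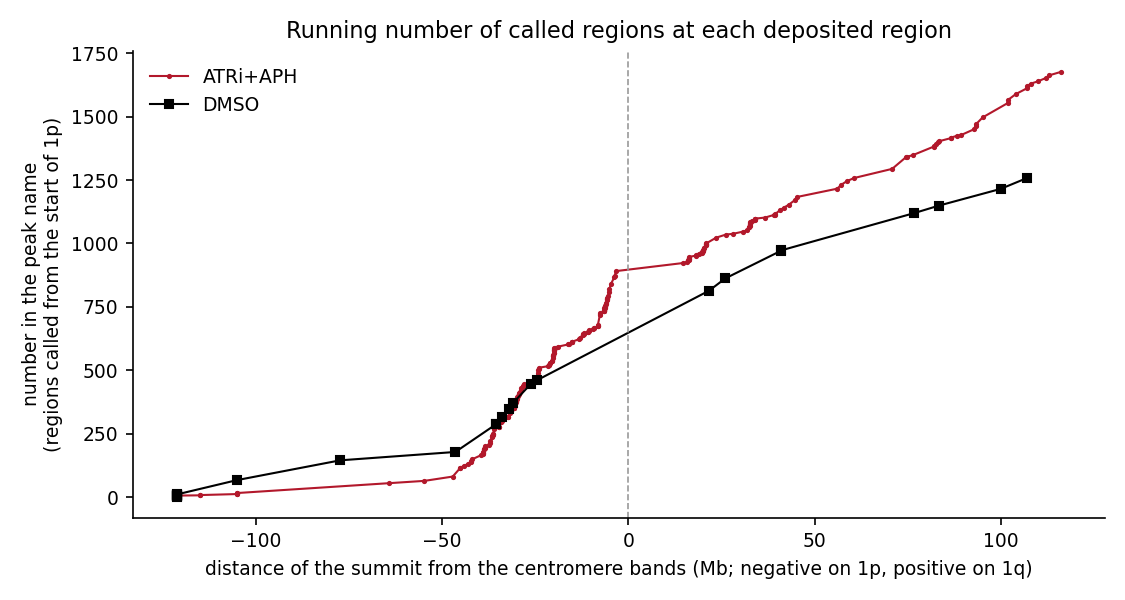
Number in the name of each deposited region (y axis, a running count of called regions from the tip of 1p) against the distance of its summit from the centromere bands of chromosome 1 in Mb (x axis, negative on 1p and positive on 1q), with lines joining successive deposited regions of ATRi+APH (red) and DMSO (black). Both curves climb most steeply over centromeric 1p, with 16.4 to 18.8 (ATRi+APH) and 12.9 (DMSO) called regions per Mb between 75116227 and 96880749.

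The step on 1p lay within band 1p31.1. From the last region of the outer 1p, at 66788928 in 1p31.3, to the first of 1p31.1, at 74381179, the ATRi+APH call held 2.11 regions per Mb. It then held 10.9 per Mb up to 82489403, still in 1p31.1, and 20.2 per Mb from there to the last region in 1p12. These points were chosen after the values were seen.

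Most regions of 1p lay over raised local background. MACS2 is generally known to set the local background to the larger of the genome mean and the input coverage around a region. At the summits it was a median of 1.38 times the genome background on 1p (1.34 to 1.38), 1.03 on 1q (1.00 to 1.03) and 1.03 on chromosomes 2 to 22. The genome background was 2.91 reads after scaling, so 1.38 against 1.03 is a small difference in reads. The intervals of these medians do not allow for counting error in the input, and single ratios have no interval. The 13 regions of the outer 1p had the same median as those of 1p31.1 to 1p12, 1.38, with a wider interval (1.00 to 1.72). The 9 regions from 74381179 to 82489403 had a median ratio of 1.07 and the 131 beyond, up to the last in 1p12, had 1.38. Across the bands of 1p31.1 to 1p12 the median ratio ran from 1.02 in 1p21.1 to 1.47 in 1p22.3, and band 1q21.1 had 1.96.

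Reads and folds moved with this background. Regions of 1p had a median of 32 reads (31 to 33) and a median fold of 3.90 (3.83 to 3.96), while those of 1q had 29 reads (28 to 30) and a fold of 4.26 (4.17 to 4.36). The 1p regions therefore had more reads but lower fold, and neither pair of intervals overlaps for these medians. All listed regions had a −log10 p of at least 6.41, and p depends on reads and local background. Over a higher background a region needs more reads to be listed, and its fold at the same p is lower. The differences in reads and fold are thus not separate from that in background. At the genome background the ratio of the 1q fold to the 1p fold turned to 0.952, from 1.09. The genome background itself stood behind 12 of the 154 regions on 1p (7.79%, 4.09 to 13.2) and 36 of the 82 on 1q (43.9%, 33 to 55.3), and behind 42.5% of regions on chromosomes 2 to 22.

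The 48 regions at the genome background comprised 4 on 1p36.33 to 1p31.2, 8 on 1p31.1 to 1p12 and 36 on 1q. Restricting the list to them removes, by construction, every place where the local background is above that of the genome, however slightly. Regions with a ratio of 1.03, the median of 1q, are removed too. The length that could hold a region at the genome background is not known, so no density is given. The part of the raised background in the excess on centromeric 1p was not tested.

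**Figure D5:**
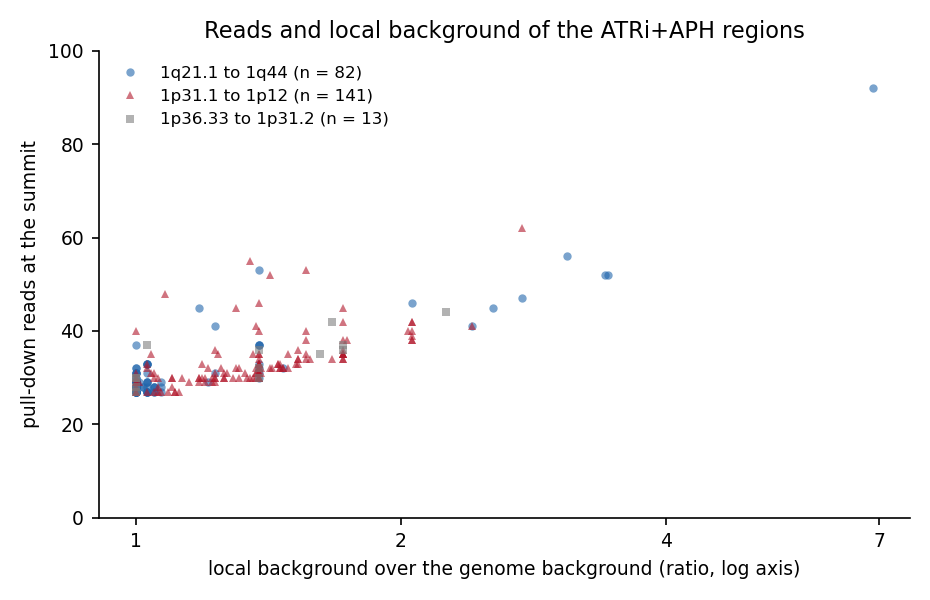
Pull-down reads at the summit (y axis) against the local background as a multiple of the genome background (x axis, log axis) for the 236 ATRi+APH regions, by section of chromosome 1. The regions of 1p31.1 to 1p12 spread over raised backgrounds (median 1.38), those of 1q gather at 1 (median 1.03), and the 1q42.3 region with 92 reads stands alone at 6.88.

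Compared with the other autosomes, chromosome 1 held 22.5% of the regions (20.0 to 25.2) on 8.79% of the length. That share was 15.5% at a fold of 4 or more and 9.85% at a fold of 5 or more. Its density, 1.04 per Mb, ranked 1 of 22, ahead of chromosome 16 at 0.759, and its median background ratio of 1.24 also ranked 1, while its median fold of 4.04 ranked last. The share of regions in runs, 39.0%, ranked 3, after chromosomes 16 and 14. Without 1p31.1 to 1p12 the density of chromosome 1 was 0.539 per Mb, which would rank 4, against 0.346 per Mb over chromosomes 2 to 22.

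Genes could be placed only by band, because the gene table is of another assembly (GRCh38.p14) than the regions, so no gene below is known to lie at a break region. Centromeric 1p is poor in genes, with 5.70 protein-coding genes per Mb in 1p31.1 to 1p12 against 11.3 in the outer 1p and 9.13 on 1q. The gene lists are described by the bands that hold their members, since a band often holds many other genes. Over all bands within the limits, 37 of 59 held a region, and the band counts below are to be read beside that share. Genes carry GRCh38 band names and regions hg19 ones, and band limits can differ between assemblies. A gene may therefore lie in another hg19 band than the one given, so the counts beside genes and lists are approximate.

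The 4 listed large genes linked with fragile sites or with aphidicolin-induced breaks were all in bands with a region. DAB1, an adaptor of reelin signalling, is in 1p32.2, which held 1 region. NEGR1, a neuronal adhesion molecule, is in 1p31.1 with 21, DPYD, which degrades pyrimidines, is in 1p21.3 with 9, and ESRRG, an orphan nuclear receptor, is in 1q41 with 8. The 4 bands together held 16.5% of the regions on 14.5% of the length. The 24 protein-coding genes longer than 500 kb lie in 16 bands. Of these bands 10 held a region, close to the 37 of 59 over all bands. Together they held 21.2% of the regions on 36.3% of the length. AGBL4 in 1p33 (1501 kb) and KAZN in 1p36.21 (1225 kb) are in bands with none, although they rank with DAB1 (1552 kb) among the longest genes of the chromosome.

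The 12 listed replication and replication stress genes lie in 12 bands, of which 5 held a region, with 18.2% of the regions on 22.3% of the length. Empty bands hold CLSPN (1p34.3), which encodes the ATR pathway mediator claspin, RPA2 (1p35.3), a subunit of the single-strand binding protein, ORC1 (1p32.3) of the origin recognition complex, MAD2L2 (1p36.22), CDC20 (1p34.2), RAD54L (1p34.1), a recombination motor, and PARP1 (1q42.12), a sensor of strand breaks. By GRCh38 band name, the band with most regions is that of DCLRE1B, a nuclease that protects telomeres (1p13.2, 26 regions). Next is that of CDC7, a kinase that fires origins (1p22.1, 10 regions).

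Cancer genes lie in 16 bands, of which 10 held a region, close to the 37 of 59 over all bands. Their bands together held 43.2% of the regions on 34.8% of the length. NRAS, an oncogenic GTPase, shares 1p13.2 with DCLRE1B. FUBP1 is in 1p31.1 with 21 regions. MCL1, an inhibitor of apoptosis, and PDE4DIP have the GRCh38 band name 1q21.2, and hg19 band 1q21.2 held 15 regions. Their hg19 bands were not looked up. Bands without a region hold TP73 (1p36.32), ARID1A (1p36.11), MYCL (1p34.2), CDKN2C (1p32.3), JUN (1p32.1) and ABL2 (1q25.2).

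Clustered gene families fell into both kinds of band. The interferon-inducible GBP genes, 8 in the table, are all in 1p22.2, which held 20 regions on 1.59% of the length. The NBPF genes, a family expanded in the duplicated parts of 1p and 1q, lie in bands with 18.2% of the regions on 11.7% of the length, 15 of the regions in 1q21.2 and 10 in 1q21.1. The PRAMEF family (1p36.21, 30 entries) and the 5S ribosomal RNA genes (1q42.13, 17 entries) are in bands without an ATRi+APH region, and 1q42.13 held 1 DMSO region, chr1:228771280-228771370 with 31 reads. Of the 85 transfer RNA genes of the chromosome, 32 are in 1q23.3, the band of the narrow run of 7, and their bands together held 30.5% of the regions on 25.8% of the length. The lists of long genes and of transfer RNA genes were added after the values were seen.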

How the data were processed

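BrITL break ends were measured in MDA-MB-231 cells with 2 pull-down libraries and 1 input library for each of 2 conditions. Per the submitters' processing notes, reads were handled with MACS2 2.1.0, Picard 1.141, SAMtools 0.1.19, STAR 2.5.2a and bcl2fastq 2.17.1.14, in roles not given in the sources used here, and hg19 and mm10 are the builds listed. The authors deposited 1 region list per condition, called on pooled pull-down against input libraries, as the region names state. The deposited fold is a ratio of pileup to local background, the deposited significance used here is a −log10 p-value, the deposited score is an integer not used for any result, and the deposited summit offset is in bases. No read totals are given. Positions are hg19, counted from 1.

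Regions were selected, placed in hg19 bands (circlize 0.4.16, R 4.3.3) and described with Python 3.11.15, numpy 2.4.6, pandas 2.3.3 and scipy 1.17.1. Reads at each summit were recovered from fold and −log10 p with the formulas MACS2 is generally known to use. All rows gave whole reads (100%, tolerance 0.02), with an inferred scale of 0.567 for the treated pileup. The solution for each row, and the treated scale, were those nearest whole reads, so that share is not an independent check. Summits held 27 to 140 reads in the ATRi+APH list and 15 to 156 in the DMSO list. The procedure was tested on 1133 and 381 simulated regions, of which 100% returned their reads. The simulation was given scales and a lowest background close to the true ones. Because libraries were amplified by PCR without stated molecular identifiers, intervals cover counting error only. Intervals are exact Clopper-Pearson (shares), exact Poisson (counts) or order-statistic (medians), at 95%. With 1 pooled list per condition, no test was made.

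The regions and lists were chosen with earlier results of these data known. Named regions are the 5 highest in fold and the 5 widest of each arm (ties included), all that overlap a DMSO region and those next to the limits. Named runs are those with most regions and the first of 1q. Named bands have 5 or more regions, or none over 3 Mb. Named genes are from the lists, in the leading and empty bands. Genes came from RefSeq GRCh38.p14 and were joined to regions by band name, with all listed genes matched and 93 rows on other scaffolds left out. Base sequences were not used here. Alternatives were the counting of close summits once, minimum folds of 4 and 5, a minimum width of 200 bp, leaving out regions shared with DMSO, other limits and other run distances.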

Additional observations from a re-analysis of the deposited data

How the results depend on the processing

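Values were recomputed under 85 alternatives, of which 49 stayed close, 32 moved and 4, all ratios of arms, changed direction. Shares were labelled only as close or moved, so a share that fell below its share of length counts among the 32. The 1p share fell below its 52.8% of length at a fold of at least 4 and at the genome background. That of 1p31.1 to 1p12 fell below its 22% of length at the genome background. A share stayed close when it was within its reported interval, and a ratio of arms when the median of each arm was within that arm's reported interval. No paired analysis was possible because each list pools its libraries, and for the same reason leaving out a replicate was not possible. The overlap with DMSO regions has no value without the overlapping regions, being 0 by construction. Alternatives at the genome background other than for fold, without 1p31.1 to 1p12 and at the DMSO threshold were chosen after seeing the data.

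With summits at most 10 kb apart counted once, the 1q over 1p ratio of median spacing was 5.85 and the share in runs 24.1% (from 7.03 and 39.0%). At a fold of at least 4, the 1p share was 46.4%, the 1p31.1 to 1p12 share 40.8%, the 1p over 1q ratio of width 1.41, of summit offset 1.14 and of background 1.12, the spacing ratio 2.77, the share in runs 12.8% and chromosome 1's share of autosomal regions 15.5%, and the 1q over 1p fold ratio turned to 0.991. At a fold of at least 5, with 13 regions, the 1p over 1q ratios were 4.62 for width, 1.24 for offset and 1.08 for background, and that of distance to the centromere turned to 1.14; the spacing ratio was 1.38, the share in runs 0%, the DMSO overlap 7.69%, the fold ratio 1.03 and the chromosome 1 share 9.85%. At widths of at least 200 bp, the ratios were 1.11 for width, 1.12 for offset, 0.377 for distance to the centromere and 7.56 for spacing, and the shares were 20.0% in runs and 20.0% for chromosome 1. Runs joined at 50 or 200 kb held 27.1% and 55.1%.

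Among regions at the genome background, the fold ratio turned to 0.952 and the spacing ratio to 0.395; the 1p share was 25%, that of 1p31.1 to 1p12 was 16.7%, runs held 0% and chromosome 1's share was 12.2%. Without 1p31.1 to 1p12, chromosome 1's share was 10.5%. At the DMSO threshold the 1p share was 71.4%. A filter on fold removes regions over raised background first, and one on background removes all of them, both by construction. Summits with 27 reads have exact Poisson intervals of 17.8 to 39.3, so single regions near the threshold are not ordered by these data.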
